A study of Mus musculus with 6 samples.

Results

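A set of 10 genes of the infarct scar was followed in mouse ventricles 4 days after myocardial infarction (MI). They comprised the genes of 6 secreted matrix proteins that act on cells as well as holding tissue together (Postn, Tnc, Spp1, Sparc, Fn1 and Cthrc1), 2 contractile genes that mark the myofibroblast (Acta2 and Tagln), the matrix glycoprotein gene Cilp and the surface protease gene Fap. The members were chosen by name, all 10 were found among the 26012 genes of the deposited table, and all 10 were among the 21126 genes tested. In these hearts 8 members were lower and 2 higher on average after miR-19a/19b mimic injection than after control mimic injection, and 0 of the 10 passed the test. Cilp differed most, with a mean of 3684 against 5384 normalized counts, a fold of 0.661 on the log scale of the test.

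The hearts were of male C57BL/6 mice operated on at the age of 8 weeks, in which the left anterior descending coronary artery was ligated and 10 μg of mimic per heart was injected into the heart muscle. A mimic is a synthetic duplex RNA that the cell uses as it would the mature miRNA. Control mimic was given to 3 hearts and miR-19a/19b mimic to the other 3, and poly-A RNA of the ventricular tissue was sequenced. All 6 hearts were infarcted and injected, so the comparison is between mimics and holds no uninjured level, and the labels do not say which part of the ventricle was taken.

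After MI, resident fibroblasts are activated within days, divide, and become myofibroblasts that contract and lay down the scar. They secrete fibrillar collagen together with matricellular proteins, which bind collagen and cell surface receptors and tune adhesion, migration and growth factor signalling rather than carrying load. Several of these genes are nearly silent in the healthy adult ventricle and are switched on in the wound. In bulk tissue, fewer cells of a type and less RNA per cell cannot be told apart.

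The injected miRNAs belong to the miR-17-92 cluster and its relatives, and they pair with target mRNAs mainly through their seed, bases 2 to 8. The mature sequences in RefSeq (GRCm38.p6) are shown because the seed matches sought below were taken from them, with the seed in capitals:
miR-19a-3p: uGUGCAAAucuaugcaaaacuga
miR-19b-3p: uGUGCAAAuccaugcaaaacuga
Both sequences are 23 bases long and share the seed GUGCAAA. They differ by U11C, counted from the 5′ end of miR-19a-3p. Mir19a lies on chromosome 14 (chr14:115044048-115044070, plus strand). The miR-19b sequence is encoded at 2 loci, by Mir19b-1 on the same chromosome (chr14:115044358-115044380, plus strand) and by Mir19b-2 (chrX:52741991-52742013, minus strand).

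In the longest annotated 3′ UTR of each member (GENCODE M21, GRCm38), a seed match was counted at TTTGCACA (an 8-mer), or at its 7-mers TTTGCAC or TTGCACA, on the mRNA strand, with a 7-mer inside the 8-mer counted once. A match was found in 2 of the 10 members, Postn and Tnc. The windows around them are shown with the matching bases in capitals:
Postn: acagctaagtcTTTGCACAgtaaaaacctt
Tnc: caacgacttccTTTGCACcaaagacaaca
The Postn match is an 8-mer at chr3:54390618-54390625 on the plus strand, at base 319 of a 3′ UTR of 738 bases. The Tnc match is a 7-mer at chr4:63960251-63960257 on the minus strand, at base 176 of 648. Of the genes with a 3′ UTR within 10% of the length of Postn's, 10.97% held a match, and for Tnc's length 8.96% did. In the other 8 members, whose 3′ UTRs are 228 to 1085 bases long, these letters were not found. Other kinds of site, and sites outside the 3′ UTR, were not sought, so a member without a match may still hold one. A match is a description of the sequence and does not show that the mimics act there.

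The values below are normalized counts, that is, reads on a gene over the size factor of that library, and every comparison is miR-19a/19b mimic against control mimic. Each heart had between 19398196 and 23645308 reads on genes. The 10 members together took 1.57% to 1.91% of the normalized counts in the control hearts and 1.23% to 1.87% in the miR-19a/19b mimic hearts, and these ranges overlap. Log2 fold changes, standard errors and 95% intervals are from limma on log2(normalized count + 1), with the Benjamini and Hochberg adjustment of p taken over all genes tested. The labels number the libraries of a group as replicates without tying each to an animal, so p-values rest on the spread between these libraries. Limma also pulls the spread of each gene toward that of genes at a similar level. Standard errors, intervals and p-values are thus not set by a gene's own spread alone.

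**Figure D1:**
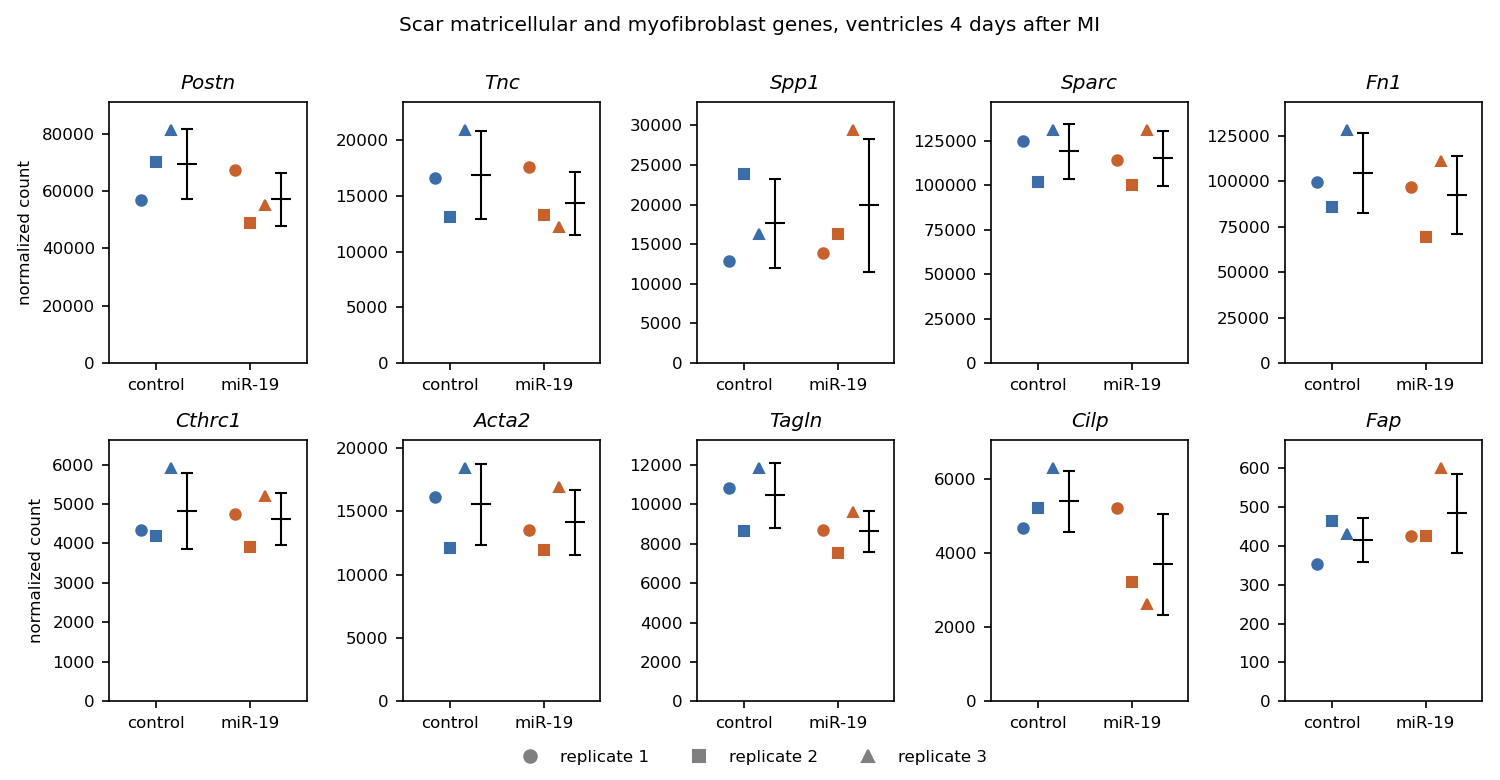
Normalized counts of the 10 genes in each heart, on a linear axis from 0 in each panel. Blue symbols are control mimic hearts and orange symbols miR-19a/19b mimic hearts, with the shape giving the replicate number, and the bar beside each group is its mean ± SD (n = 3). In all 10 panels the symbols of the groups overlap, and Postn and Cilp each have 2 of their 3 miR-19a/19b mimic hearts below every control heart.

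Among the secreted matricellular proteins, Postn (ENSMUSG00000027750, chr3:54361109-54391037, plus strand) encodes periostin, which cross-links collagen and is the classical marker of activated cardiac fibroblasts. It had 57080, 70079 and 81486 normalized counts in control mimic replicates 1, 2 and 3. The matching values after miR-19a/19b mimic were 67281, 48950 and 55219. In this group 2 hearts lay below every control heart, and replicate 1 lay above control replicate 1. The means were 69548 ± 12211 (SD, n = 3) and 57150 ± 9317, a log2 fold change of -0.28 with a standard error of 0.25. The interval ran from -0.84 to 0.28, and the unadjusted p from limma was 0.285. With a heart left out the log2 fold change lay between -0.42 (without control replicate 1) and -0.16 (without control replicate 3).

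Tnc (ENSMUSG00000028364, chr4:63959785-64047015, minus strand) encodes tenascin C, a large glycoprotein that loosens cell adhesion at the border of a fresh infarct. Control hearts had 16664, 13091 and 20976 normalized counts, and miR-19a/19b mimic hearts 17588, 13304 and 12196. The highest of the 6 hearts was control replicate 3 and the next was miR-19a/19b mimic replicate 1, so the groups were mixed in order. The log2 fold change was -0.23 with a standard error of 0.21, an interval from -0.71 to 0.25 and an unadjusted p of 0.314 from limma. It was -0.06 without control replicate 3 and -0.40 without control replicate 2. Another annotated gene, 8030451A03Rik, lies over 67162 bases of the genomic span of Tnc on the other strand. Their transcripts aligned most closely over 104 bases, at 100% identity. Counting by strand is not stated in the sources used here, so reads from shared stretches may be mixed.

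Spp1 (ENSMUSG00000029304, chr5:104435118-104441050, plus strand) encodes osteopontin, an integrin ligand made in the infarct largely by macrophages. It had 12850, 23823 and 16272 normalized counts in control hearts and 13919, 16293 and 29456 in miR-19a/19b mimic hearts. The highest heart was miR-19a/19b mimic replicate 3 and the next highest was control replicate 2, so each group had 1 heart well above its others. Spp1 varied most within its groups, with a coefficient of variation of 31.8% in control and 42.1% in miR-19a/19b mimic hearts. Its log2 fold change was 0.14 with a standard error of 0.31, and the interval from -0.57 to 0.85 allowed folds from 0.676 to 1.80 (unadjusted p = 0.662, limma). It was -0.18 without miR-19a/19b mimic replicate 3 and -0.06 without control replicate 1, so its direction rests on those hearts. The gene Gm42793 overlaps Spp1 by 1252 bases on the same strand.

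Sparc (ENSMUSG00000018593, chr11:55394500-55420080, minus strand) encodes a collagen-binding protein needed for collagen to be processed and deposited. It had 124593, 101596 and 130910 normalized counts in control hearts and 113953, 100064 and 131132 in miR-19a/19b mimic hearts. The groups covered almost the same range, and the highest heart of each group stood 0.15 above the control mean on the log2 scale. The log2 fold change was -0.05, with a standard error of 0.29 and an interval from -0.70 to 0.60 (unadjusted p = 0.867, limma). By mean count Sparc was the gene of rank 9 in the table, and its coefficient of variation was 13.0% in control and 13.5% in miR-19a/19b mimic hearts.

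Fn1 (ENSMUSG00000026193, chr1:71585520-71653200, minus strand) encodes fibronectin, the provisional matrix on which fibroblasts move into the wound. The control hearts had 99446, 85668 and 128524 normalized counts and the miR-19a/19b mimic hearts 97177, 69171 and 111438. Control replicate 3 was highest and miR-19a/19b mimic replicate 2 lowest, with the other 4 hearts between them and mixed in order. The log2 fold change was -0.18 with a standard error of 0.30 and an interval from -0.87 to 0.51 (unadjusted p = 0.563, limma). The gene Apol7d overlaps Fn1 by 364 bases on the other strand.

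Cthrc1 (ENSMUSG00000054196, chr15:39076932-39087121, plus strand) encodes a secreted protein with a collagen-like repeat that marks the most activated fibroblasts of the infarct. Its normalized counts were 4349, 4192 and 5920 in control hearts and 4747, 3906 and 5203 in miR-19a/19b mimic hearts. The means, 4820 ± 956 (SD, n = 3) and 4619 ± 658, differed by less than either SD. The log2 fold change was -0.05, with a standard error of 0.17 and an interval from -0.43 to 0.32 (unadjusted p = 0.752, limma).

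Of the contractile genes, Acta2 (ENSMUSG00000035783, chr19:34241090-34255336, minus strand) encodes smooth muscle alpha-actin, the actin of stress fibres in myofibroblasts and of vessel walls. Control hearts had 16127, 12118 and 18460 normalized counts and miR-19a/19b mimic hearts 13522, 11961 and 16925. Control replicate 2 lay below 2 of the 3 miR-19a/19b mimic hearts. The log2 fold change was -0.13 with a standard error of 0.20 and an interval from -0.59 to 0.32 (unadjusted p = 0.524, limma). Transcripts of Acta2 aligned to those of 63 other genes, at most at 85.6% identity (Actb, over 160 bases), and at 95% identity to 0 of them.

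Tagln (ENSMUSG00000032085, chr9:45929628-45936058, minus strand) encodes transgelin, also called SM22-alpha, an actin-binding protein of the same cells. It had 10853, 8659 and 11868 normalized counts in control hearts, against 8728, 7530 and 9622 in miR-19a/19b mimic hearts. Control replicates 1 and 3 were above every miR-19a/19b mimic heart, and control replicate 2 was below 2 of them. The means were 10460 ± 1640 (SD, n = 3) and 8627 ± 1050, and the log2 fold change was -0.27 with a standard error of 0.16. Its interval, from -0.64 to 0.09, allowed at most a fold of 1.06 upward (unadjusted p = 0.123, limma). Tagln is overlapped on the other strand by Gm48529, over 3627 bases, and by Pcsk7, over 99 bases.

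The glycoprotein gene Cilp (ENSMUSG00000042254, chr9:65265180-65280605, plus strand) encodes cartilage intermediate layer protein, which is also made by fibroblasts of the injured heart and binds growth factors in the matrix. It had 4667, 5195 and 6291 normalized counts in control hearts and 5213, 3210 and 2629 in miR-19a/19b mimic hearts. Replicates 2 and 3 of the miR-19a/19b mimic group were below all control hearts, and replicate 1 was above control replicates 1 and 2, so the groups overlapped. The means were 5384 ± 828 (SD, n = 3) and 3684 ± 1356, a log2 fold change of -0.60 with a standard error of 0.23. The interval, from -1.13 to -0.07, is that of a fold between 0.457 and 0.956. The unadjusted p from limma was 0.0318, against an adjusted p of 0.9996. For Cilp limma used a smaller spread than that between its own hearts. By its own spread alone the interval would be wider and the unadjusted p larger. Without miR-19a/19b mimic replicate 1 the log2 fold change of Cilp was -0.88 (unadjusted p = 0.000559, adjusted p = 0.621, limma), and without replicate 3 it was -0.39 (unadjusted p = 0.0568, limma). The unadjusted p was also above 0.05 without control replicate 2 (0.0661), control replicate 3 (0.116) or miR-19a/19b mimic replicate 2 (0.095).

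Fap (ENSMUSG00000000392, chr2:62500943-62574075, minus strand) encodes fibroblast activation protein, a serine protease on the surface of activated fibroblasts that cuts collagen fragments. It had 354, 464 and 430 normalized counts in control hearts and 426, 425 and 602 in miR-19a/19b mimic hearts. The higher mean of the latter group came with 1 heart, replicate 3, above all others. The log2 fold change was 0.21 with a standard error of 0.17 and an interval from -0.17 to 0.59 (unadjusted p = 0.242, limma). Without that replicate the log2 fold change was 0.04.

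**Figure D2:**
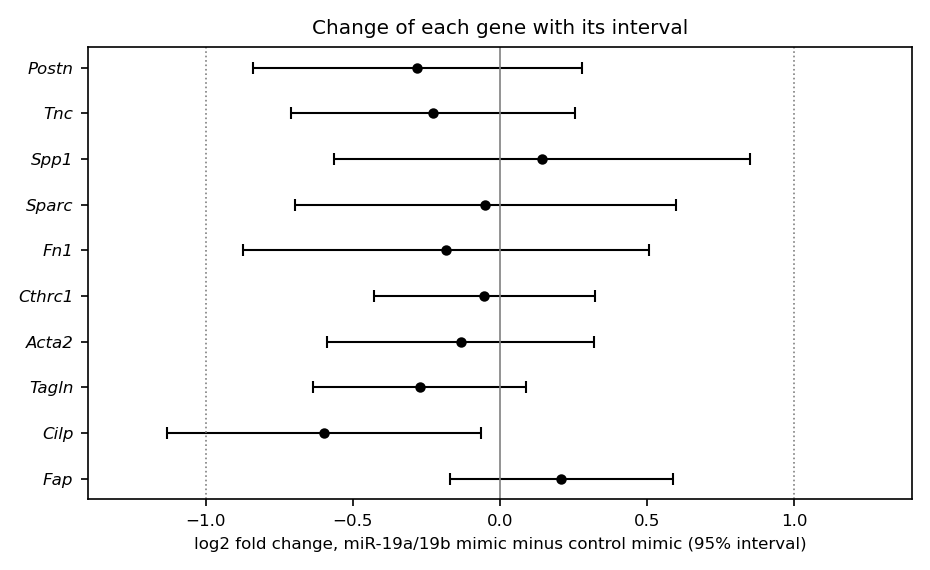
Log2 fold change of each gene, miR-19a/19b mimic minus control mimic, as a point with its 95% interval from limma (3 hearts against 3). Dotted lines mark a 2-fold change in either direction. The intervals of 9 genes include 0, that of Cilp runs from -1.13 to -0.07, and no interval reaches a 2-fold higher level. For some genes, Cilp and Spp1 among them, limma used a smaller spread than that between their own hearts.

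Across all genes tested, 0% passed an adjusted p under 0.05 in limma, and 0 of the 10 members did, with an adjusted p of 0.9996 for each. At an unadjusted p under 0.05, 1 member was lower and 0 were higher, where 2.63% of all genes tested were lower and 1.39% higher. For 0 of the 10 members were the groups free of overlap, where 5.3% of all genes tested were lower and 3.9% higher without overlap. The median log2 fold change of the members was -0.16, beside 0.00 over all genes tested, of which 49.2% were lower by point estimate. On the recovered reads, at an adjusted p under 0.05, DESeq2 also passed 0 of the members and edgeR's quasi-likelihood test 0. Of all 21126 genes tested, DESeq2 passed 28 lower and 1 higher, and edgeR's test passed 0. At an unadjusted p under 0.05 each test had 1 member, beside 579 of all genes tested in DESeq2 and 837 in edgeR's test. Under the spread that limma uses, the intervals bound what 3 hearts against 3 could have missed. The lowest bound was that of Cilp, at 0.457 of the control level, and the highest that of Spp1, at 1.80 times. Both genes varied between their own hearts by more than the spread that limma used for them. By their own spread alone both intervals would be wider.

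The order of the hearts was shared by many members. Control replicate 3 was the highest of the 6 hearts for 7 of the 10 members, and miR-19a/19b mimic replicate 3 was the highest for the other 3, Spp1, Sparc and Fap. MiR-19a/19b mimic replicate 2 was the lowest heart for 6 members. Within the control group, replicate 3 was highest for 8 members and replicate 2 lowest for 6. For most members, single hearts of 1 group spread more widely than the group means differed. The highest control heart stood 1.29 (Sparc) to 1.85 (Spp1) times above the lowest, and the highest miR-19a/19b mimic heart 1.28 (Tagln) to 2.12 (Spp1) times. This range exceeded the fold between groups, taken in either direction, for 9 of the 10 members in the control hearts, the exception being Cilp, and for all 10 in the miR-19a/19b mimic hearts. A range of single hearts tends to be wider than a difference of means, and the share over all genes was not taken. When control replicate 3 or miR-19a/19b mimic replicate 2 was left out, 5 members were lower and 5 higher by point estimate, in place of 8 and 2.

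The members did not all follow 1 order of hearts. As a description, Pearson's r between log2 values was 0.98 for Sparc and Acta2, 0.94 for Fn1 and Cthrc1, 0.92 for Fn1 and Acta2 and 0.91 for Acta2 and Tagln, over 6 hearts that share their library and its scaling. Of the 45 pairs of members, 11 had r of at least 0.8. Spp1 and Fap had r of 0.92 with each other, and all 8 pairs with r below 0 held Spp1 or Fap, the lowest being Spp1 with Tnc at -0.70. Cilp was nearest to Postn (r of 0.85) and to Tnc (0.79), and it had r of 0.03 with Sparc. Of the 11 pairs with r of at least 0.8, 9 were among Sparc, Fn1, Cthrc1, Acta2 and Tagln, and the others were Spp1 with Fap and Postn with Cilp.

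**Figure D3:**
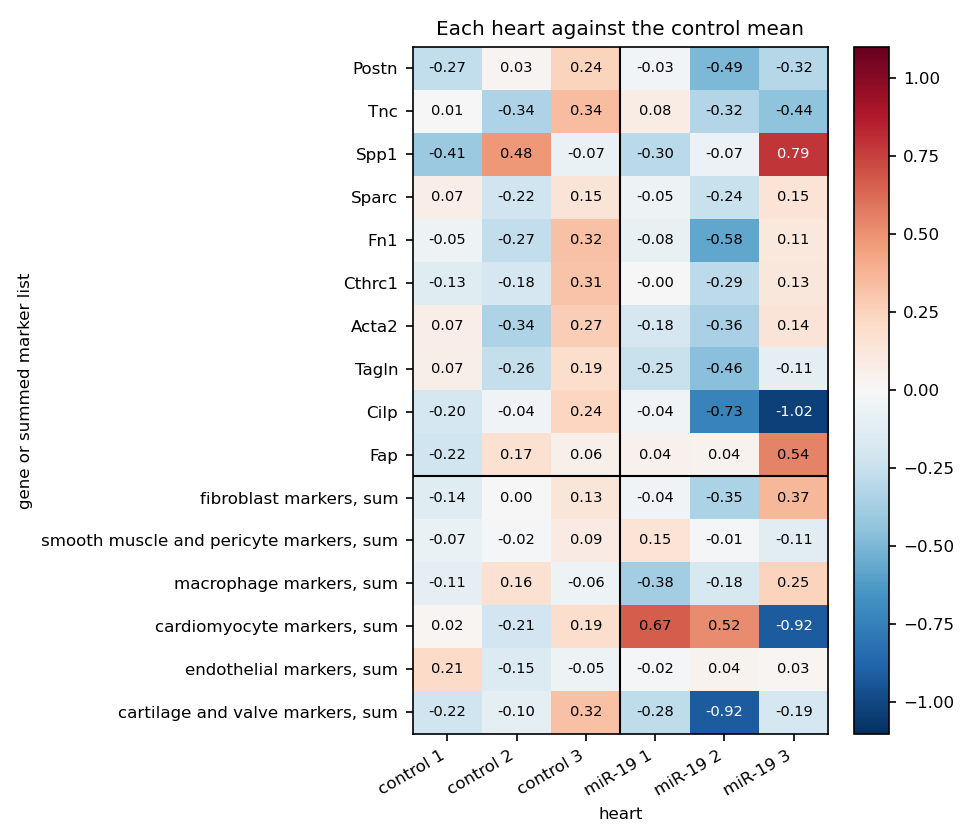
Each cell gives the log2 difference of 1 heart (columns) from the mean of the 3 control hearts, for the 10 genes (upper rows) and for the summed counts of markers of 6 cell types (lower rows). Red is above and blue below the control mean. MiR-19a/19b mimic replicate 3 combines the highest Spp1 (0.79) and the lowest Cilp (-1.02) with the lowest cardiomyocyte sum (-0.92).

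Ratios between members do not depend on the scaling of the library. They were chosen after the values were seen and carry no test. Tagln stood at 0.673, 0.715 and 0.643 of Acta2 in control hearts and at 0.645, 0.630 and 0.569 in miR-19a/19b mimic hearts, and control replicate 3 lay just below miR-19a/19b mimic replicate 1. Cilp stood at 0.0818, 0.0741 and 0.0772 of Postn in control hearts and at 0.0775, 0.0656 and 0.0476 in miR-19a/19b mimic hearts. The Cilp share of Postn was thus within the control range in replicate 1 and below it in the other miR-19a/19b mimic hearts. Cthrc1 stood at 0.0349 to 0.0452 of Sparc in control hearts, a range that holds all 3 miR-19a/19b mimic hearts (0.0390 to 0.0417).

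To compare levels between genes, normalized counts were divided by the gene length given with the deposited values, in kilobases. How that length was measured is not stated, and it need not be the length of the main mRNA. The order of genes below depends on it. On this per kilobase scale, over all 6 hearts, Sparc was highest at 34761 ± 4167 (SD, n = 6), above Spp1 in every heart. Spp1 (11389), Fn1 (8436), Acta2 (8339), Postn (7280) and Tagln (6017) followed, with ranges over the hearts that overlapped between each and the next. Tagln was above Cthrc1 (3189) in every heart. Cthrc1 was in turn above Tnc (2012) in every heart, although their ranges over the hearts overlapped, and Cilp (1066) was below Tnc and above Fap (79.5) in every heart. Postn, of rank 24 by mean count, had 4 members above it per kilobase at its given length of 8702 bases, and a shorter length would raise it. Fap, of rank 7736 by mean count, was the lowest on both scales.

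By the same log2 values, the genes most like the members over the 6 hearts were sought among 12728 genes with a mean of at least 50. They were picked as the best of many candidates over few hearts, so the names describe this series only. For Spp1 they were Fbxo33, Kif4 and Kif11 (r of 0.998, 0.994 and 0.993), of which the last 2 are kinesins of dividing cells. For Cilp they were Itfg1, Amotl1 and Thbs4 (0.996, 0.994 and 0.992), the last a matricellular thrombospondin of the heart. For Cthrc1 they were Fat4, Gpc3 and Fzd5, for Acta2 Actn4, Tmem98 and Cntn2, and for Fn1 Scube3, 1810055G02Rik and Mpp6. For Postn they were Dgkq, Pkd2 and Gopc, for Tnc Gpr107, Rbm48 and Mrps18b, for Tagln Spata13, Gm17501 and Fam57a, and for Fap Dnmt3b, Zranb3 and Ckap2l. These r lay between 0.973 and 0.998.

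Genes of the same pathways, from lists that leave the members out, were read in the same fit. The counts of each list, and of the cell type markers further on, stand beside the shares over all genes tested. At an unadjusted p under 0.05 these shares were 2.63% lower and 1.39% higher, and without overlap of the groups 5.3% lower and 3.9% higher. Of 30 other matricellular and scar glycoprotein genes, 20 were lower and 10 higher by point estimate, with a median log2 fold change of -0.06, which was 0.02 without miR-19a/19b mimic replicate 2 and -0.01 without control replicate 3. At an unadjusted p under 0.05, 1 was lower and 0 were higher, and without overlap of the groups 3 were lower and 1 higher. Comp, a cartilage matrix protein also found in scars, had a log2 fold change of -0.46 (unadjusted p = 0.0832, limma). The most abundant of the list, Fstl1 and Fbln2, had log2 fold changes of -0.10 and -0.05.

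Of 24 other smooth muscle and myofibroblast contractile genes, 20 were lower and 4 higher by point estimate, with a median log2 fold change of -0.18. At an unadjusted p under 0.05, 2 were lower and 0 higher, where 2.63% and 1.39% of all genes tested were. Without overlap of the groups 4 were lower, where 5.3% of all genes tested were. Cnn1, the smooth muscle calponin, had 926, 635 and 883 normalized counts in control and 634, 428 and 527 in miR-19a/19b mimic hearts (log2 fold change -0.62, unadjusted p = 0.00819, limma). Every miR-19a/19b mimic heart was below every control heart for Cnn1, although control replicate 2 and miR-19a/19b mimic replicate 1 were nearly equal. Ltbp2, a microfibril protein that sits in this list as a gene of myofibroblasts and is not itself contractile, had 13380, 12915 and 16463 against 11396, 7963 and 10084 (log2 fold change -0.55, unadjusted p = 0.0118, limma), also without overlap. Flna, the abundant actin cross-linker filamin A, had a log2 fold change of -0.16 (unadjusted p = 0.366, limma). The list's adjusted p was 0.9996 throughout, and 0 of its genes passed.

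Integrins and other matrix receptors, not all of which bind a member, numbered 16, with 10 lower and 6 higher by point estimate and a median of -0.12. At an unadjusted p under 0.05 there were 0, and 3 were lower without overlap of the groups, where 5.3% of all genes tested were. Itgb1, the beta chain shared by most fibronectin and tenascin receptors, had 24967, 25215 and 27452 normalized counts in control hearts and 23610, 22646 and 21586 in miR-19a/19b mimic hearts (log2 fold change -0.19, unadjusted p = 0.233, limma). Itga9, the alpha chain of a tenascin and osteopontin receptor, had a log2 fold change of -0.35 (unadjusted p = 0.0523, limma), and the alpha chain Itgav, which binds periostin, osteopontin and fibronectin, -0.24 (unadjusted p = 0.0629). Cd36, a thrombospondin and fatty acid receptor, had 0.21 (unadjusted p = 0.435).

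The transcription factors and coactivators of the myofibroblast state showed 15 of 20 lower and 5 higher by point estimate, with a median of -0.08, 0 at an unadjusted p under 0.05 and 1 lower without overlap. Klf4, a repressor of smooth muscle genes, had a log2 fold change of 0.36 (unadjusted p = 0.0892, limma), and Meox1, a switch of fibroblast activation, -0.24 (unadjusted p = 0.0865). Tead1 and Fosl2, the most abundant of the list, had -0.16 and 0.00. Of 8 genes listed beside Fap (Dpp genes and Prep), not all of which encode serine proteases, 7 were tested. By point estimate 3 were lower and 4 higher, with a median of 0.02 and 0 at an unadjusted p under 0.05. Dpp4, the nearest relative of Fap, had 115, 118 and 139 normalized counts in control and 113, 97.9 and 98.5 in miR-19a/19b mimic hearts, which do not overlap (log2 fold change -0.26, unadjusted p = 0.128, limma). Dpp8 and Dpp9, cytosolic proteases and the most abundant of the list, had -0.07 and 0.04.

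**Figure D4:**
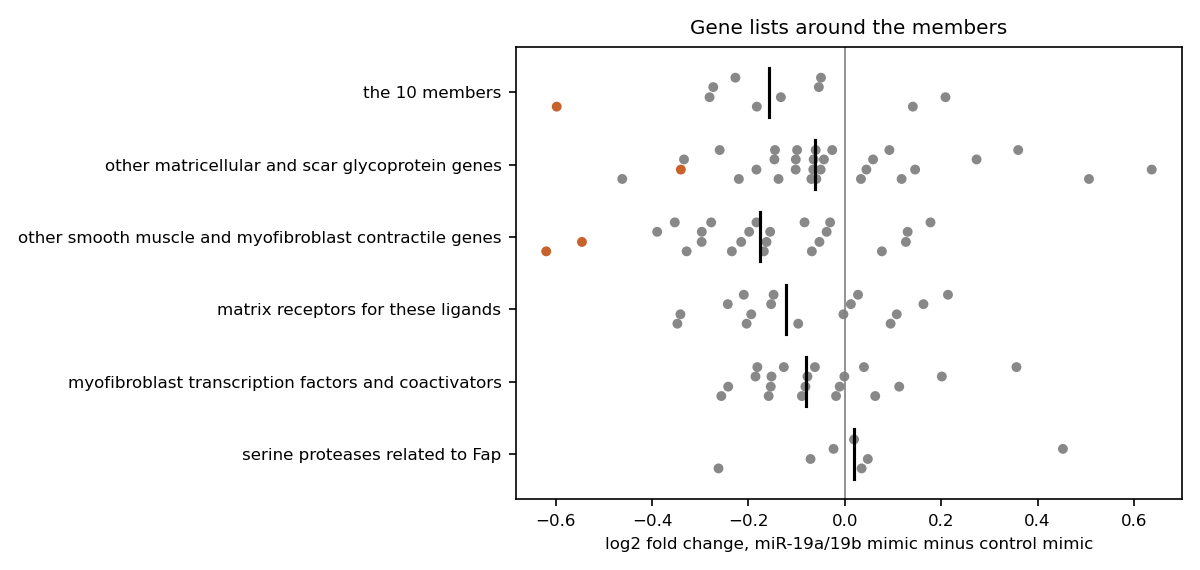
Log2 fold change (miR-19a/19b mimic minus control mimic, horizontal axis) of the 10 genes and of each gene in the 5 lists, 1 point per gene, with vertical offsets for legibility. Orange points have an unadjusted p under 0.05 in limma and black bars are medians, which lie between -0.18 for the contractile genes and 0.02 for the genes listed beside Fap. Not all of the latter, labelled as serine proteases, encode one.

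Levels of cell type markers differed between hearts and stood beside the members as follows. Values were above 0 for 12 of 12 cardiomyocyte and 12 of 12 fibroblast markers. No marker of the other lists, such as skeletal muscle, was at 0 in all hearts either, so this does not identify the tissue. Fibroblast markers summed to 619577 to 745680 normalized counts in control and 534832 to 877293 in miR-19a/19b mimic hearts, with a median log2 fold change of -0.02 and 0 of 12 at an unadjusted p under 0.05. The sum was mostly that of the collagen genes Col1a1, Col3a1 and Col1a2 (270138, 153957 and 147019 in control replicate 1). The lowest sum was in replicate 2 and the highest in replicate 3 of the miR-19a/19b mimic group, as for Sparc. Within that group Pcolce, Thy1, Pdgfra and Mmp2 kept this order. Tcf21 and Lum were highest in replicate 3 but lowest in replicate 1. Dcn (12218, 12874 and 10537 in replicates 1 to 3), Gsn (12825, 14177 and 8905) and Dpt were lowest in replicate 3. Smooth muscle and pericyte markers summed to 22947 to 25758 and 22336 to 26712, with 1 of 10 (Cnn1) at an unadjusted p under 0.05. Macrophage markers summed to 91241 to 110302 and 75518 to 116791, with 0 of 12. Their highest sum was in the heart with the highest Spp1, miR-19a/19b mimic replicate 3, and the next highest in control replicate 2, which was second for Spp1. Spp1 stood at 3.05, 5.07 and 4.28 times Cd68 in control hearts and at 3.78, 3.93 and 4.81 times in miR-19a/19b mimic hearts.

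Cardiomyocyte markers summed to 536060 to 709062 in control hearts. After miR-19a/19b mimic the sums were 987971, 892895 and 329518, so replicate 3 was the lowest of the 6 hearts and the other 2 were the highest. Markers of cartilage and valve, tissue in which Cilp is also made, summed to 2420 to 3535 in control and 1494 to 2477 in miR-19a/19b mimic hearts. Of these 8 genes, 7 were lower by point estimate and 2 had an unadjusted p under 0.05, Col2a1 (log2 fold change -1.14) and Fmod (-0.82). Their lowest sum was in miR-19a/19b mimic replicate 2, while Cilp was lowest in replicate 3. Skeletal muscle markers summed to 18406 to 29184 in control and 8621 to 31987 in miR-19a/19b mimic hearts, most of it Acta1. MiR-19a/19b mimic replicate 1 stood apart for Myh3, with 452 normalized counts against 0 to 1.73 in the other hearts. Myh1, Myh2, Myh4, Myog, Actn3, Mylpf and Tnnt3 were also far highest there. Acta1 in that heart (22551) was within the control range, and Ckm (6110) was close to that of replicate 2 (5963). T cell markers were the only list of cell type markers whose sums did not overlap, at 188 to 260 in control and 141 to 166 in miR-19a/19b mimic hearts. By point estimate 6 of 6 were lower, 2 at an unadjusted p under 0.05, and for 3 the groups did not overlap. These are low counts. Cd4 had 55.7 to 115 normalized counts per heart, with groups that overlapped, and no other gene of the list exceeded 49.8 in any heart. Neutrophil markers (6 of 6 lower by point estimate, 1 at an unadjusted p under 0.05) summed to 1897 to 2567 and 1047 to 3429. Epicardial and mesothelial markers (6 of 6 higher by point estimate, 0 at that threshold) summed to 294 to 879 and 666 to 1022. Endothelial markers summed to 26490 to 34009 and 29003 to 30305, with 0 of 8. The part of these cell types in the members' values was not tested.

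Replicate 3 of the miR-19a/19b mimic group also set how many genes passed. Without it, 0.774% of all genes tested were lower and 1.81% higher at an adjusted p under 0.05, and 6.08% were lower and 8.39% higher at an unadjusted p under 0.05. Of the members, 0 passed at an adjusted p and 1 was lower at an unadjusted p, and that gene was Tagln (log2 fold change -0.36, unadjusted p = 0.0265, adjusted p = 0.258, limma) in place of Cilp. Of the 24 contractile genes, 10 were then lower and 1 higher at an unadjusted p under 0.05, and 0 passed at an adjusted p. In the same fit 11 of the 12 cardiomyocyte markers were higher at an unadjusted p under 0.05 and 7 at an adjusted p under 0.05, with log2 fold changes from 0.61 (Myom2) to 0.93 (Ckm). Of the 12 macrophage markers 7 were lower at an unadjusted p, and of the 12 fibroblast markers 0 were lower and 1 (Gsn) was higher. The part of these cell types in the contractile and matrix counts was not tested. Of the 30 matricellular genes, 2 were lower and 1 higher at an adjusted p under 0.05, among them Comp (log2 fold change -0.76) and Tnxb (0.83, a tenascin of loose connective tissue). Klf4 was higher at an adjusted p of 0.0317 (log2 fold change 0.57, limma). Tagln also had an unadjusted p of 0.0401 without control replicate 2.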

How the data were processed

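RNA-seq was made from 6 mouse hearts, 3 for each mimic, and groups were taken from the library titles. Per the labels' processing notes, the authors used STAR 2.5.1b, HTSeq 0.6.0 and DESeq2 1.10.1, while the methods of the study name edgeR. The deposited signal is a normalized count, in which the authors scaled each library by its size factor (0.905 to 1.16). In each heart 100% of the values came within 0.1 of a whole number of reads, so the reads were recovered. The authors' fold changes, p-values and table of changed genes were not used. The notes name mm9, but GENCODE M21 (GRCm38) holds 25884 of the identifiers, 82.7% with the same start and end (7 of the 10 members), so coordinates are given as on GRCm38.

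Limma 3.58.1 (R 4.3.3, trended prior, two-sided) was fitted on log2(normalized count + 1) for genes with a mean of at least 1. Such a fold change understates that of genes at low levels. In 3 hearts against 3, exact permutation cannot give p below 0.1. The depth of 19398196 to 23645308 reads puts at least 320 reads behind each member's value in each heart. Tests were checked on simulated data. The 10 members and all lists were chosen with earlier results of these data known. Named from each list were the 2 most abundant genes and the 2 with the smallest p. Results of some genes that this rule names are not reported here. Tnxb, Cd68 and the genes named from the cell type markers, to which the rule does not apply, were named after their values were seen. Alternatives were DESeq2 1.42.0, edgeR 4.0.16, limma-voom, TMM and upper quartile scaling, 2 filters, 2 pseudocounts, a replicate block and each heart left out. Sequences are from RefSeq and GENCODE, and each member's transcripts were aligned to all others with BLAST, reporting alignments of at least 100 bases.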

Additional observations from a re-analysis of the deposited data

How the results depend on the processing

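In all 16 alternatives 0 members passed an adjusted p under 0.05. Their smallest adjusted p was 0.258, without miR-19a/19b mimic replicate 3. The count at an unadjusted p under 0.05, 1 gene, became 0 without a filter on low values and 0 with a replicate block, in which Cilp had an unadjusted p of 0.078 and 0.0581 (limma). The cause of these shifts was not tested. With each heart left out it was between 0 and 1, and the gene was Tagln, not Cilp, without control mimic replicate 2 or miR-19a/19b mimic replicate 3. The members' median log2 fold change was -0.16 to -0.15 under the 10 alternatives that kept all hearts, and -0.29 to 0.00 with a heart left out, the latter without miR-19a/19b mimic replicate 2.

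All 10 members kept their direction under the 10 alternatives with all hearts. Directions turned only with a heart left out. Then Spp1 ranged from -0.18 (without miR-19a/19b mimic replicate 3) to 0.38, and was -0.06 without control mimic replicate 1. Sparc ranged from -0.16 to 0.047, Fn1 from -0.33 to 0.014, Cthrc1 from -0.15 to 0.10 and Acta2 from -0.30 to 0.00098. Above 0 were Sparc, Fn1 and Cthrc1 without miR-19a/19b mimic replicate 2, and Sparc (0.02), Cthrc1 and Acta2 without control mimic replicate 3. Of the lists, the matricellular median turned to 0.018 without miR-19a/19b mimic replicate 2. Scaling moved the median of all genes by less than 0.1.

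Same-numbered hearts did not deviate alike from their group means, with correlations of -0.01, -0.02 and -0.11 across 21126 genes. Deviations within a group cancel out, so these correlations are tied to each other. Whether same-numbered hearts were handled as pairs cannot be decided from them. The block lowered the number of all genes at an unadjusted p under 0.05 from 848 to 641, with 0 passing an adjusted p in either fit. DESeq2 passed 28 genes lower and 1 higher, none of them members. Each member had at least 320 reads in each heart, and its coefficient of variation within a group was 12.2% to 42.1%.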
